A study of Mus musculus with 12 samples.

Results

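Collagens and laminins are the structural proteins of the extracellular matrix, and their genes were followed in the small intestine of mice that differ in Slc39a4 (Zip4), the gene of a zinc importer of the gut epithelium. Every gene whose symbol names a collagen chain (Col, a number, a, a number) or a laminin chain (Lama, Lamb or Lamc and a number) was taken, which gave 53 of the 17112 genes of the table, 42 collagens and 11 laminins. RNA-seq was run on tissue described as whole small intestine of 12 C57BL/6 mice, 1 library per mouse. KO mice ate a diet labelled 40 ppm zinc, and HET and WT mice ate diets labelled 15 ppm zinc. In each genotype 2 mice received zinc bound through the hydroxy end of an organic complex and 2 through the amino end, which makes 6 groups of 2. The KO mice were 237 and 240 days old on the hydroxy complex and 198 and 228 days on the amino complex. Ages in HET were 338 and 143 days on the hydroxy complex and 363 and 141 days on the amino complex. The WT mice were 237 and 221 days old on the hydroxy complex and 210 and 218 days on the amino complex. The text describing the whole series gives 15 ppm for every diet. By the sample labels, loss of Slc39a4 and the higher zinc level go together, and cannot be told apart in any comparison of KO with another genotype. The sources used here do not give how the Slc39a4 allele was made or in which cells it is lost.

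Fibrillar collagens build the tensile fibres of the gut wall, mostly from fibroblasts and smooth muscle cells. Laminin trimers of an alpha, a beta and a gamma chain, together with the type IV collagen network, form the basement membranes that lie under the epithelium and around blood vessels and muscle cells. Type VI collagen forms beaded filaments beside those membranes. Other collagens coat fibrils, anchor the epithelium or span the plasma membrane.

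Libraries are named by genotype, complex and a replicate number that only names them, and each list of 4 values below runs hydroxy 1, hydroxy 2, amino 1, amino 2. Values are CPM, the reads of a gene for each M reads of its library. Libraries held 26.0 to 38.8 M reads (median 31.8 M) by the size of the steps between low values, which makes 3 reads worth 0.0774 to 0.115 CPM (counting error alone). Several libraries stood apart. HET hydroxy 1 and HET amino 1 come from the 2 oldest mice, and held 656 and 874 CPM of the immediate early gene Egr1, against 50.8 CPM or less in the other 10. HET amino 2 and WT hydroxy 1 held 99.3 and 259 CPM of Fabp6, an ileal gene that stood below 1 CPM elsewhere. Whether all libraries hold the same parts of the small intestine was not tested. In HET amino 2, with 32.6 M reads, 1551 genes stood at the lowest value of the table, against 483 to 867 in the other libraries. Both sex labels of the KO amino group go against the data: Xist was at 244 CPM in KO amino 1, a mouse labelled male, and at 0.155 CPM in KO amino 2, a mouse labelled female in which Y-linked Ddx3y reached 32.2 CPM. Slc39a4 stood at 72.1 ± 23.6 CPM in KO, 195 ± 74.4 CPM in HET and 229 ± 33.1 CPM in WT (SD, n = 4), and KO did not overlap with either (exact two-sided permutation p = 0.0286 each, the smallest that 4 against 4 allows). The epithelial marker Epcam was at 930 CPM or more in every library. In bulk tissue, fewer cells of a type and less RNA per cell cannot be told apart. Nothing in the labels says that mice of a group came from separate litters or cages, so p-values measure the spread between these animals.

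Of the 53 genes, 44 reached 1 CPM in at least 2 libraries and were tested, 33 collagens and all 11 laminins. The other 9 were Col9a1, Col9a3, Col10a1, Col17a1, Col19a1, Col22a1, Col25a1, Col26a1 and Col28a1, and none of them passed 0.947 CPM in any library. To set genes beside each other, CPM was divided by kb of exon, with the exons of all annotated transcripts of a gene merged. On this scale Col6a1 was highest (17.9 CPM per kb on average over the 12 libraries), then Col4a1 (17.8), Col4a2 (15.7), Col3a1 (14.9) and Col1a1 (9.38). A merged length can exceed that of any single transcript, so the order depends on the annotation. Without the division Col3a1 was highest, at 146 CPM on average. Among laminins, Lamc1, Lamb3 and Lamb1 had the highest levels, at 5.80, 5.36 and 5.32 CPM per kb. The level was lowest for Col10a1, the hypertrophic cartilage collagen, at 0.0123 CPM per kb.

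The collagen and laminin transcripts summed to 526, 790, 948 and 1013 CPM in KO, 2653, 1388, 2233 and 1474 CPM in HET, and 966, 1482, 1180 and 1127 CPM in WT. KO hydroxy 1 thus had the lowest sum, and the 2 older HET mice the highest. KO hydroxy 1 was the lowest library for 35 of the 44 tested genes and among the 2 lowest for 42. HET hydroxy 1 was the highest library for 22 and HET amino 1 for 14, and they were the 2 highest together for 30.

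The promoter windows of 3 genes are shown, and whether their sequences bear on the levels below was not tested. Col4a1 and Col4a2 start 21 bases apart on opposite strands and kept a nearly fixed ratio, and Lamb3 is the member that went the other way. The windows run from 250 bases before to 50 bases after the start of each gene, from RefSeq on GRCm38.p6, the assembly behind mm10, and are written 5′ to 3′ on the strand of the gene. Capitals mark the GGGCGG and CCAAT letters, or their reverse complements, that a search on both strands found.
Col4a1, chr8:11312777-11313076, minus strand: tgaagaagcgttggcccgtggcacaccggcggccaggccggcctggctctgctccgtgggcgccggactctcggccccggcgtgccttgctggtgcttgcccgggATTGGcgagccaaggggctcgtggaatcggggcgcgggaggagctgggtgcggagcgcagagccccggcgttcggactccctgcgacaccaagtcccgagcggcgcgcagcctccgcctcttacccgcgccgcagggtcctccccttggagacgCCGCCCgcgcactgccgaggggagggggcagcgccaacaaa
Col4a2, chr8:11312555-11312854, plus strand: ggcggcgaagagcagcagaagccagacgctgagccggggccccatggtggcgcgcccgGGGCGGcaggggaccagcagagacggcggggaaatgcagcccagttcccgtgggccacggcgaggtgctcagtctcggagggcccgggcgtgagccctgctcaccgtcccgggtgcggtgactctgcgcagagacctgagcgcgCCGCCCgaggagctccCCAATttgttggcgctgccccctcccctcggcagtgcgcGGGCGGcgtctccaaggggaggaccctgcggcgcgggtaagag
Lamb3, chr1:193301744-193302043, plus strand: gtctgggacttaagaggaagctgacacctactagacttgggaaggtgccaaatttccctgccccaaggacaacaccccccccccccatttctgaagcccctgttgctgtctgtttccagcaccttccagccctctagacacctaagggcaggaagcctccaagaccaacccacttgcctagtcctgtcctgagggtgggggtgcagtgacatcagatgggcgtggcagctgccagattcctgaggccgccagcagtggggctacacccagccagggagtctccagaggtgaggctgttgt
The Col4a1 and Col4a2 windows share 78 bases, read from opposite strands. Col4a1 holds 1 GGGCGG and 1 CCAAT, and Col4a2 holds 3 GGGCGG and 1 CCAAT. The GGGCGG of Col4a1 lies in the shared bases and is the same site as the last GGGCGG of Col4a2. Lamb3 holds neither, and no TATAAA or TGANTCA. Windows were given for 39 of the 53 genes, and for each gene only the window nearest its deposited start was used. Of these, 24 (61.5%) hold GGGCGG, against 35.7% of all 32851 promoter windows. Here and below, the share over all windows counts every window of every gene, so it is not a like measure. CCAAT stands in 33.3% of the members' windows and 37.4% of all, TATAAA in 12.8% and 13.6%, and TGANTCA in 2.56% (1 window) and 7.81%. These are matches of letters and do not show that a factor binds.

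KO against HET was the comparison in which most members passed the test. In KO mice 21 collagen and laminin genes were lower than in HET mice and 1, Lamb3, was higher (limma, adjusted p under 0.05). That is 22 of 44, or 50%, beside 6.84% of all 14001 genes tested (3.4% lower and 3.44% higher). The log2 change was below 0 for 42 of the 44, with a median of −1.09 beside −0.07 over all genes, and 34 had an unadjusted p under 0.05, beside 27.5% of all genes. Every KO library lay below every HET library for 25 members (56.8%), beside 7.13% of all genes.

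**Figure D1:**
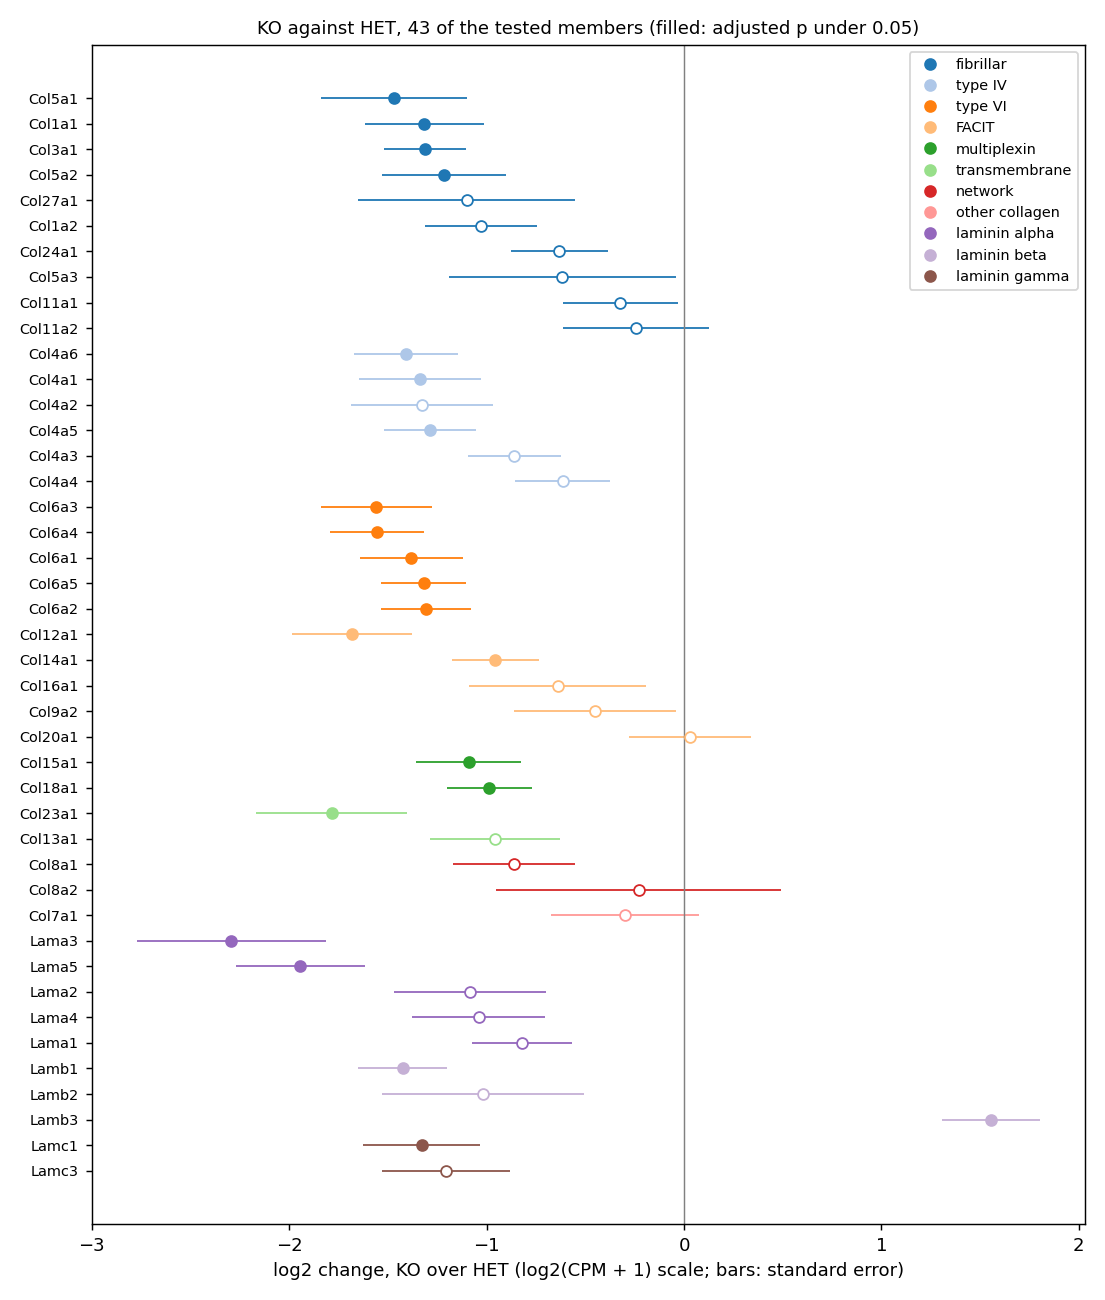
Log2 change of 43 of the 44 tested genes in KO over HET, on the log2(CPM + 1) scale, with bars for the standard error, in order of gene class. Filled points are the 22 genes with an adjusted p under 0.05, of which Lamb3, at 1.55, is the only one right of 0.

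Among fibrillar collagens, 4 of 10 fell in KO relative to HET, namely Col3a1, Col1a1, Col5a1 and Col5a2, and none rose. Col3a1 (chr1:45311538-45349706, plus strand, mm10), the chain of type III collagen of distensible organs, stood at 52.3, 81.2, 106 and 117 CPM in KO, 286, 171, 224 and 188 CPM in HET, and 114, 163, 122 and 131 CPM in WT. All KO values were below all HET values, and KO amino 2 lay within the WT range. The log2 change in KO over HET was −1.31 (SE 0.21, adjusted p = 0.0197). Col1a1 (chr11:94936224-94953042, plus strand), a chain of type I collagen, stood at 19.3, 29.4, 44.5 and 52.0 CPM in KO, 137, 66.1, 102 and 58.8 CPM in HET, and 36.7, 76.1, 57.7 and 58.4 CPM in WT. Its values in the younger HET mice lay within the WT range, and its change in KO over HET was −1.32 (SE 0.30, adjusted p = 0.0389). Its partner chain Col1a2 had 51.2 ± 15.0 CPM in KO, 105 ± 30.5 CPM in HET and 72.9 ± 19.0 CPM in WT (SD, n = 4), and the change of −1.03 did not pass (adjusted p = 0.0576). The ratio of Col1a1 to Col1a2 was 0.524 to 0.825 in KO, 0.697 to 0.991 in HET and 0.702 to 0.827 in WT. Col5a1 and Col5a2, chains of the type V collagen that starts fibril assembly, had changes of −1.47 (adjusted p = 0.0474) and −1.22 (adjusted p = 0.0492). Of the rest, Col27a1, Col5a3, Col24a1, Col11a1 and Col11a2 ranged from −1.10 to −0.24 and did not pass.

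All 5 listed type VI chains were lower in KO than in HET, with changes between −1.56 and −1.31. Col6a1 (chr10:76708792-76726044, minus strand) stood at 24.4, 46.8, 50.5 and 59.9 CPM in KO, 155, 88.4, 138 and 88.9 CPM in HET, and 60.0, 86.5, 74.4 and 65.2 CPM in WT. The 3 genotypes did not overlap, with KO lowest and HET highest. The change in KO over HET was −1.38 (SE 0.26, adjusted p = 0.0253). Its neighbour on the same strand, Col6a2, followed it closely, with a ratio of Col6a1 to Col6a2 of 0.905 to 1.27 over the 12 libraries and a change of −1.31 (adjusted p = 0.0220). Col6a3 (chr1:90766860-90843971, minus strand), the longest chain of the trimer, stood at 11.6, 26.8, 34.8 and 30.4 CPM in KO, 115, 59.6, 69.6 and 58.9 CPM in HET, and 36.9, 53.3, 49.6 and 39.3 CPM in WT. Its genotypes were also fully separate, and its change was −1.56 (SE 0.28, adjusted p = 0.0233). Col6a4 and Col6a5, which can take the place of Col6a3 in the trimer, stood at 31.4 ± 13.6 and 1.87 ± 0.619 CPM in KO, against 91.3 ± 25.7 and 6.07 ± 0.797 CPM in HET (SD, n = 4). In WT they stood at 43.8 ± 8.63 and 2.26 ± 0.163 CPM, so that KO was at 71.8% and 83.0% of WT. Their changes in KO over HET were −1.56 (adjusted p = 0.0181) and −1.32 (adjusted p = 0.0202).

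Of the type IV collagens, 3 of 6 fell in KO relative to HET, namely Col4a1, Col4a5 and Col4a6. Col4a1 (chr8:11198423-11312826, minus strand), with Col4a2 the main chain of most basement membranes, stood at 42.9, 72.5, 92.1 and 101 CPM in KO, 308, 133, 233 and 127 CPM in HET, and 92.3, 156, 111 and 121 CPM in WT. All KO values were below all HET values, with overlap between KO and WT. The change was −1.34 (SE 0.31, adjusted p = 0.0393). Col4a2 (chr8:11312805-11449287, plus strand) stood at 29.4, 58.8, 67.5 and 87.6 CPM in KO, 236, 100.2, 193 and 93.2 CPM in HET, and 68.2, 134, 92.6 and 89.0 CPM in WT. Its change of −1.33 was close to that of Col4a1 but had a wider error and did not pass (SE 0.36, adjusted p = 0.0551). The ratio of Col4a1 to Col4a2 varied little, from 1.16 to 1.46 (median 1.32), over libraries in which each gene varied by 7.18-fold and 8.01-fold. The genes overlap by 22 bases at their starts, and the sources used here do not say whether reads were counted by strand. Col4a5 and Col4a6, whose chains are typical of basement membranes around smooth muscle, lie head to head on the X chromosome with starts 1343 bases apart. Col4a5 had 2.16 ± 0.724 CPM in KO, 6.58 ± 0.951 CPM in HET and 3.15 ± 0.909 CPM in WT (SD, n = 4), a change in KO over HET of −1.29 (adjusted p = 0.0234). For Col4a6 the values were 1.15 ± 0.560, 4.81 ± 1.89 and 2.14 ± 0.373 CPM in KO, HET and WT, a change of −1.41 (adjusted p = 0.0253). Their ratio ran from 0.978 to 3.75. Col4a3 and Col4a4, whose starts lie 72 bases apart, averaged 1.96 and 0.572 CPM and did not pass (−0.86 and −0.61, adjusted p = 0.0564 and 0.136).

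Among laminins, 4 of 11 fell in KO relative to HET and 1 rose. Lama5 (chr2:180176373-180225859, minus strand), the alpha chain of epithelial and vascular basement membranes, stood at 8.94, 16.5, 30.4 and 28.9 CPM in KO, 102, 47.0, 109 and 64.2 CPM in HET, and 23.9, 53.2, 37.5 and 39.3 CPM in WT. KO and HET did not overlap, and the hydroxy libraries were lowest within KO. The change was −1.94 (SE 0.33, adjusted p = 0.0220), after Lama3 the second largest fall of any member on the log2(CPM + 1) scale. By mean CPM, KO stood at 26.3% of HET for Lama5, above the share of Col4a6 (24.0%) and Col23a1 (24.2%). Lamb1 (chr12:31265294-31329639, plus strand), a widely used beta chain, stood at 18.4, 30.7, 40.8 and 33.6 CPM in KO, 118, 64.3, 89.8 and 64.9 CPM in HET, and 45.0, 42.5, 40.8 and 44.7 CPM in WT. The 4 HET libraries were above all others, and the 4 WT libraries lay close together. The change in KO over HET was −1.43 (SE 0.22, adjusted p = 0.0197). Lamc1, the gamma chain of most laminins, changed by −1.33 (SE 0.30, adjusted p = 0.0366), with 28.3 ± 10.2 CPM in KO, 71.5 ± 24.4 CPM in HET and 44.1 ± 9.28 CPM in WT (SD, n = 4). Lamc3, Lama1, Lama4, Lama2 and Lamb2 did not pass, with changes of −1.20 to −0.82 and adjusted p-values from 0.0547 to 0.226.

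**Figure D2:**
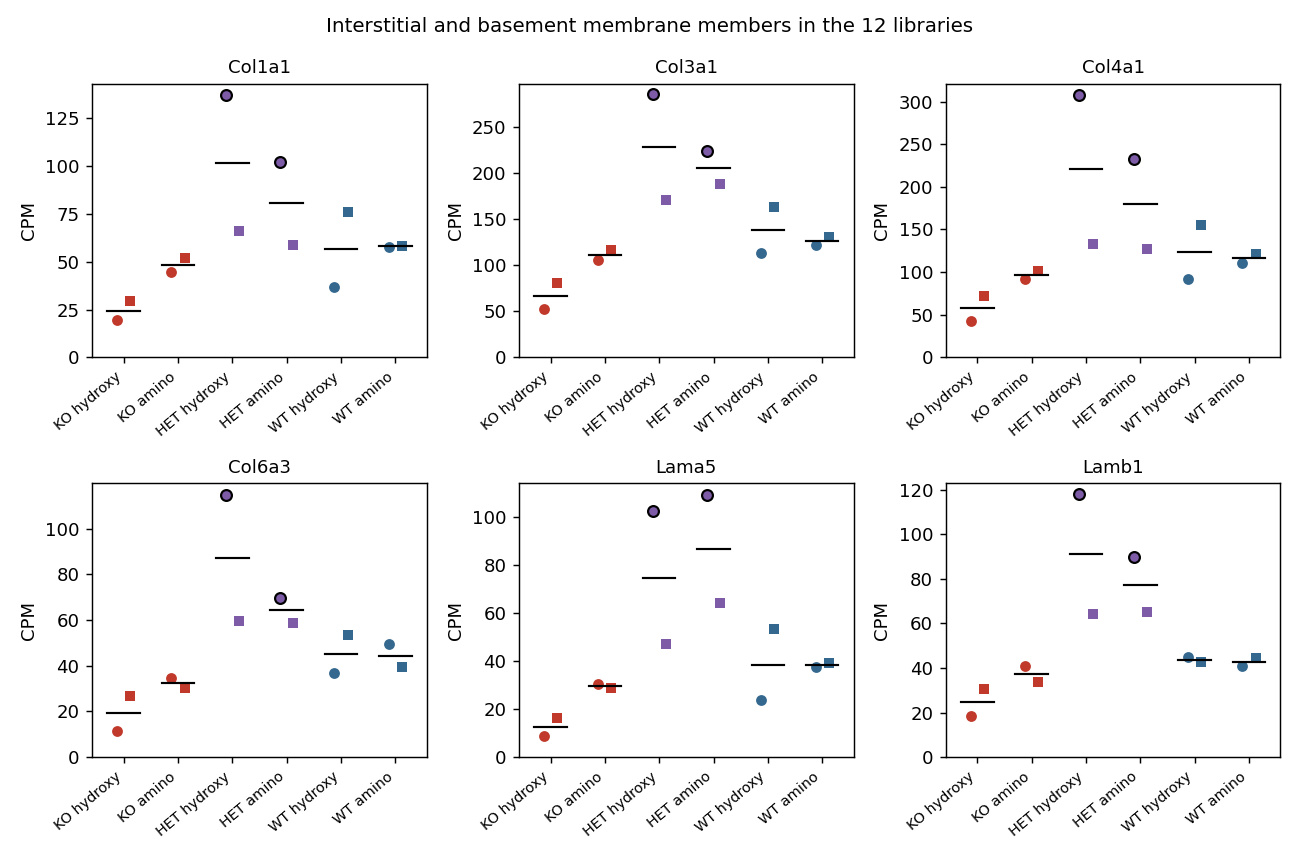
CPM of 6 members in each library, with KO, HET and WT from left to right and the hydroxy group left of the amino group within each genotype; circles are replicate 1, squares replicate 2, black outlines the HET mice aged 338 and 363 days, and lines the mean of 2. The outlined HET libraries are highest in all 6 panels and KO hydroxy 1 is lowest.

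Lama3 and Lamb3, chains of the laminin that fixes epithelial cells to their basement membrane, went in different directions. Lama3, the alpha chain, stood at 5.16, 1.87, 41.7 and 18.9 CPM in KO, 41.0, 63.3, 32.4 and 95.3 CPM in HET, and 54.6, 30.9, 75.9 and 24.1 CPM in WT. The 2 KO hydroxy libraries were far below the other 10, while KO amino 1 lay within the ranges of HET and WT. KO amino 2, at 18.9 CPM, was below the lowest WT value (24.1 CPM) and the lowest HET value (32.4 CPM). The change of Lama3 in KO over HET was −2.29 (SE 0.48, adjusted p = 0.0317), the largest fall of any member on the log2(CPM + 1) scale. Its mean CPM in KO was 29.2% of that in HET, a larger share than that of Col4a6 (24.0%) and some other members. Lamb3 (chr1:193301994-193343878, plus strand), the beta chain, stood at 118, 67.4, 32.3 and 44.3 CPM in KO, 18.9, 11.5, 20.4 and 29.9 CPM in HET, and 20.1, 18.3, 27.3 and 17.5 CPM in WT. Every KO library was above every other library, and the hydroxy libraries were highest within KO. The change was 1.55 (SE 0.25, adjusted p = 0.0197). Lamb3 was the 1 member above HET in every KO library, beside 6.21% of all genes, and the 1 above WT, beside 2.92%. The ratio of Lamb3 to Lama3 was 22.8 and 36.0 in the KO hydroxy libraries and 0.773 and 2.34 in the KO amino libraries, against 0.182 to 0.629 in HET and 0.359 to 0.727 in WT.

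**Figure D3:**
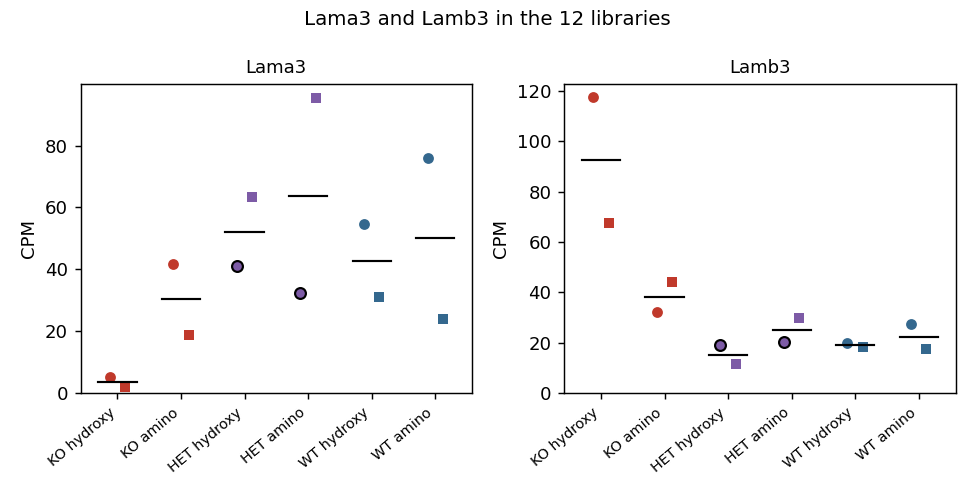
CPM of Lama3 and Lamb3 in each library, with symbols as in the plot of 6 members. Both KO hydroxy libraries sit at the bottom for Lama3 (5.16 and 1.87 CPM) and at the top for Lamb3 (118 and 67.4 CPM).

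Fibril-associated collagens, which coat the surface of fibrils, were lower in KO than in HET for 2 of the 5 tested. Col12a1 (chr9:79598987-79718722, minus strand) stood at 5.46, 10.2, 12.1 and 14.3 CPM in KO, 50.9, 21.2, 44.4 and 28.5 CPM in HET, and 17.2, 27.5, 18.1 and 16.3 CPM in WT. KO was below both other genotypes without overlap. The change in KO over HET was −1.68 (SE 0.30, adjusted p = 0.0234). Col14a1 had 14.3 ± 3.57 CPM in KO, 28.8 ± 8.09 CPM in HET and 14.6 ± 1.40 CPM in WT (SD, n = 4), so that KO and WT means were close and HET stood apart, with a change in KO over HET of −0.96 (adjusted p = 0.0391). Col16a1, Col9a2 and Col20a1 did not pass (−0.64, −0.45 and 0.03, adjusted p = 0.377, 0.500 and 0.958). Col9a2 ranged from 0.0301 CPM in KO hydroxy 1, less than 3 reads, to 3.12 CPM in WT hydroxy 2. Both multiplexins, basement membrane collagens that carry sugar chains, were lower in KO than in HET. Col18a1, the source of endostatin, had 33.4 ± 8.69 CPM in KO and 67.4 ± 18.9 CPM in HET (log2 change −0.99, adjusted p = 0.0336). Col15a1 had 15.6 ± 4.22 CPM in KO and 35.4 ± 14.7 CPM in HET (log2 change −1.09, adjusted p = 0.0442). In WT they had 37.3 ± 4.90 and 19.1 ± 3.42 CPM, so that KO stood at 89.4% and 81.6% of WT. The transmembrane collagen Col23a1 stood at 4.92, 7.89, 11.1 and 8.80 CPM in KO, 44.5, 19.3, 55.9 and 15.8 CPM in HET, and 14.9, 19.0, 16.0 and 14.9 CPM in WT. It was lower in KO than in both other genotypes without overlap, and its values in the younger HET mice were near those of WT. The change in KO over HET was −1.79 (SE 0.38, adjusted p = 0.0331). Col13a1, another membrane collagen, and Col8a1 and Col8a2, which form the lattices of vessel walls, did not pass (−0.96, −0.86 and −0.23, adjusted p-values of 0.1 or more). Neither did Col7a1, the anchoring fibril collagen (−0.30, adjusted p = 0.628), at 0.240, 0.0936, 1.78 and 2.85 CPM in KO, 1.11, 2.81, 1.82 and 0.460 CPM in HET, and 0.448, 2.66, 3.29 and 1.41 CPM in WT.

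These calls, like those over all genes, depended on single libraries. No member was called in KO against HET without KO amino 2, when 0.193% of all genes were, or without HET hydroxy 1, when 1 gene of all genes was. Without KO hydroxy 1 only Col6a5 was called (0.773% of all genes), and without KO amino 1 only Col6a4 (0.207%). The number of members called was 11 without KO hydroxy 2 (0.989% of all genes), 12 without HET amino 2 (1.18%), 13 without WT amino 1 (2.07%) and 13 without WT amino 2 (2.09%). Over all genes the count ran from 1 to 1396 with 1 library left out, against 957 with all 12. All 22 kept their direction in each of these fits. Leaving out the 2 older HET mice left 6 called (Lamb3, Lama3, Lamb1, Col3a1, Col6a4 and Col6a5), and the median change of the 41 members then tested was −0.68. Within the hydroxy libraries alone and within the amino libraries alone the median was −1.35 and −0.82, with 0 members called in either. Leaving out HET amino 2 and WT hydroxy 1 together, the libraries with Fabp6, also left 0.

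Genes that act with collagens and laminins were also compared between KO and HET, where 3.4% of all genes were called lower. Of the laminin and type IV collagen partners of the basement membrane, 4 of 13 fell, namely Npnt (−1.65, adjusted p = 0.0144), which binds integrins, the linkers Nid2 (−1.14, adjusted p = 0.0253) and Nid1 (−1.34, adjusted p = 0.0397), and Smoc1 (−1.24, adjusted p = 0.0481). Npnt stood at 16.6, 24.0, 28.9 and 31.6 CPM in KO, 98.6, 60.1, 114 and 59.3 CPM in HET, and 47.0, 41.5, 43.4 and 43.8 CPM in WT, with no overlap between genotypes. Of other matrix genes, 4 of 24 fell, namely the microfibril genes Fbn1 (−1.50, adjusted p = 0.0246) and Fbn2 (−1.29, adjusted p = 0.0336), the proteoglycan gene Bgn (−1.08, adjusted p = 0.0331) and Tnc (−1.35, adjusted p = 0.0476). Matrix proteases and their inhibitors fell for 5 of 21, with the gelatinase gene Mmp2 (−1.28, adjusted p = 0.0220), Adamts4 (−1.63, adjusted p = 0.0286), the collagenase gene Mmp13 (−1.02, adjusted p = 0.0317) and Adamts1 (−2.52, adjusted p = 0.0466) the 4 with the smallest p. In the TGF beta pathway, which drives collagen genes in fibroblasts, 3 of 17 fell, namely the receptor gene Tgfbr1 (−0.83, adjusted p = 0.0270) and the latent binding protein genes Ltbp2 (−1.27, adjusted p = 0.0317) and Ltbp4 (−1.26, adjusted p = 0.0442). Genes that hydroxylate, fold, trim or crosslink collagen passed in 1 of 29, a share near that over all genes. It was Adamts3, which removes the amino-terminal propeptide (−0.93, adjusted p = 0.0418). Integrin and other matrix receptor genes passed in 0 of 13, with Itga11, a collagen receptor of fibroblasts, at −1.15 (adjusted p = 0.0509) and Itgb4, the laminin-binding integrin of hemidesmosomes, at −0.43 (adjusted p = 0.103). No gene of these 6 lists was called higher. The change was above 0 for 4 of 29 collagen processing genes, 2 of 13 basement membrane partners and 2 of 13 receptors. It was above 0 for 5 of 24 other matrix genes, 2 of 21 proteases and inhibitors, and 0 of 17 TGF beta pathway genes. The median change was −0.60 for collagen processing, −1.11 for basement membrane partners, −0.43 for receptors, −0.71 for other matrix, −0.61 for proteases and −0.76 for the TGF beta pathway, beside −0.07 over all genes. Of the 22 genes called in these lists and in the marker lists that follow, 2 were still called without KO hydroxy 1, 1 without KO amino 1, and 0 without KO amino 2 or without HET hydroxy 1.

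Markers of the cells that make matrix varied with some of the same libraries. Pdgfra, the fibroblast marker, fell in KO relative to HET (−1.33, adjusted p = 0.0253), as did the endothelial receptor gene Kdr (−1.22, adjusted p = 0.0197) and the pericyte gene Pdgfrb (−1.49, adjusted p = 0.0124). These were the only called genes of the fibroblast (1 of 10), endothelial (1 of 10) and pericyte (1 of 5) lists. In the same order, the change was above 0 for 3 of 10, 1 of 10 and 0 of 5 genes. The median changes were −0.34, −0.62 and −0.88, beside −0.07 over all genes, of which 3.4% were called lower. Smooth muscle, epithelial, and glial and neuronal lists had 0 called of 11, 10 and 9. In that order, the change was above 0 for 1, 7 and 0 genes, with medians of −0.39, 0.15 and −0.46. The mesothelial, acinar and ileal lists had 0 called of 3, 1 and 3. Of 8 immediate early genes Fosb fell (−2.62, adjusted p = 0.0293), and of 6 adipocyte genes the lipid droplet gene Cidec rose (0.92, adjusted p = 0.0463). Summed immediate early genes ran from 318 to 459 CPM in KO and from 389 to 461 CPM in WT. In HET their sums were 2057, 324, 2329 and 566 CPM, highest in HET hydroxy 1 and HET amino 1. The median change of the 8 immediate early genes was −0.01 in KO over WT and 1.14 in HET over WT. The summed fibroblast markers ran from 143 to 266 CPM in KO, 245 to 432 CPM in HET and 209 to 305 CPM in WT. Endothelial markers summed to 157 to 304 CPM in KO, 223 to 651 CPM in HET and 258 to 351 CPM in WT. The 11 smooth muscle markers summed to 1389, 4052, 2088 and 4146 CPM in KO, 7508, 1539, 8428 and 1822 CPM in HET, and 2949, 8244, 4319 and 3723 CPM in WT. They were thus high in both older HET mice and in WT hydroxy 2, and low in KO hydroxy 1 and both younger HET mice. Fibrillar collagens summed to 119, 207, 257 and 293 CPM in KO, 712, 380, 598 and 387 CPM in HET, and 250, 460, 322 and 325 CPM in WT. The fibrillar sums were highest in both older HET mice and lowest in KO hydroxy 1. Epithelial markers summed to 8485 to 10644 CPM in KO, 6128 to 11753 CPM in HET and 7762 to 12034 CPM in WT. The part that cell composition has in the differences of collagen and laminin genes was not tested.

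**Figure D4:**
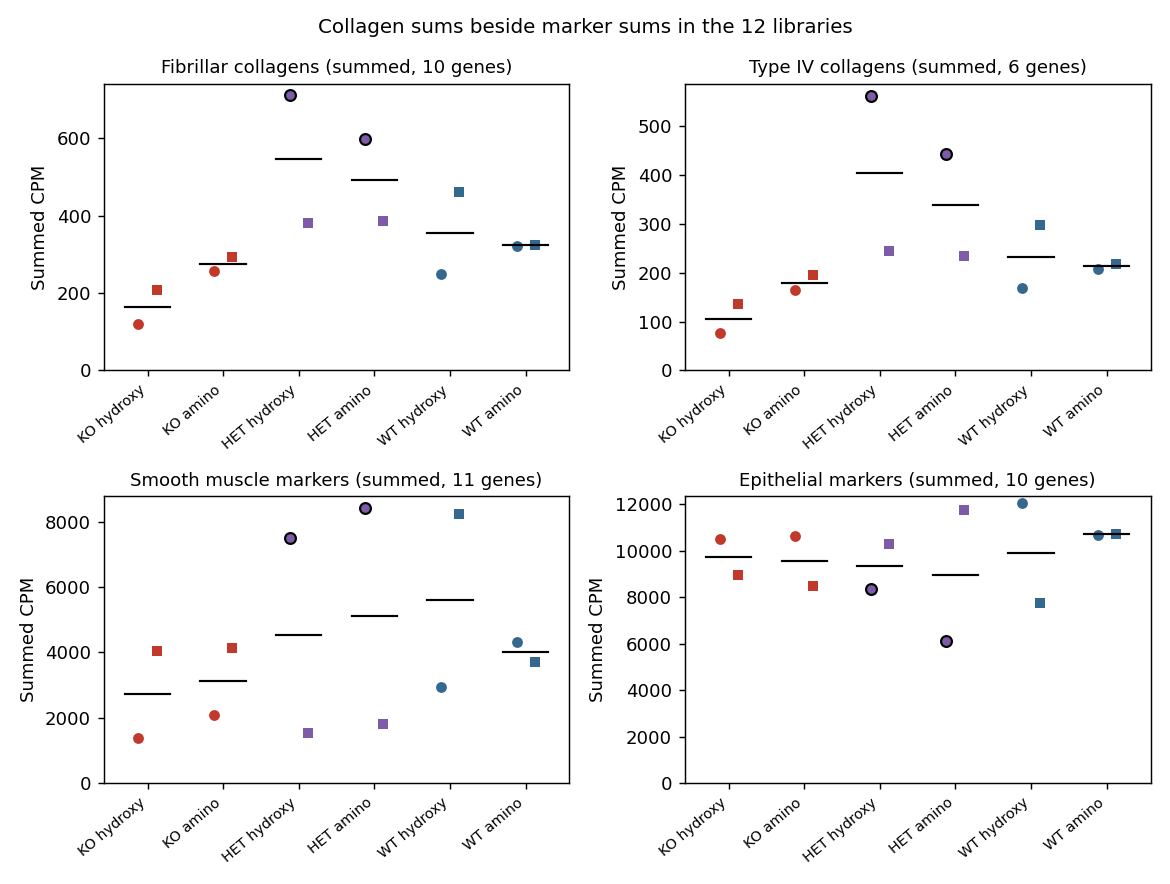
Summed CPM of the fibrillar collagens, the type IV collagens, 11 smooth muscle markers and 10 epithelial markers in each library, with symbols as in the plot of 6 members. The outlined older HET libraries are high for collagens and smooth muscle. The younger HET libraries (squares) stand at 1539 and 1822 CPM for smooth muscle and at 380 and 387 CPM for fibrillar collagens.

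Most collagen and laminin genes stood higher in the older than in the younger HET mice, and none passed the test. With an age term for the HET mice in the model, 0 members passed in older against younger HET, beside 0.107% of all genes (15, all higher). The lowest adjusted p among members was 0.110. The change was above 0 for 42 of 44, with a median of 0.79 beside 0.23 over all genes, and 28 members had an unadjusted p under 0.05, beside 22.7% of all genes. Both older libraries were above both younger ones for 37 members (84.1%), beside 43.7% of all genes. Col23a1 averaged 50.2 CPM in older and 17.5 CPM in younger HET mice (log2 change 1.46, SE 0.27, adjusted p = 0.110), Lamc3 6.68 and 2.36 CPM (1.19, SE 0.25, adjusted p = 0.111) and Col5a3 17.8 and 3.98 CPM (2.01, SE 0.49, adjusted p = 0.111). Of the marker lists, 3 of 8 immediate early genes and 1 of 6 adipocyte genes were called higher in the older mice. The median change was 1.99 for immediate early genes, 2.29 for adipocyte genes and 2.45 for smooth muscle genes, with every gene above 0. For epithelial genes it was −0.48, with 2 of 10 above 0. Age in these mice cannot be told apart from the immediate early gene and smooth muscle levels that stood high in the same libraries.

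No member passed in HET against WT, where 0% of all genes passed either (109 genes and 0 members without HET amino 1). The change was above 0 for 37 of 44, with a median of 0.62 beside 0.08 over all genes, and 16 members had an unadjusted p under 0.05, beside 15.3% of all genes (2137). The smallest p-values belonged to Col6a5 (1.11, SE 0.21), Col6a4 (1.03, SE 0.24) and Col14a1 (0.89, SE 0.22), each with an adjusted p of 0.207. All 4 HET libraries lay above all 4 WT libraries for 11 members (25%), beside 5.84% of all genes. These were Col6a1, Col6a2, Col6a3, Col6a4, Col6a5, Col4a5, Col4a6, Col3a1, Col14a1, Col18a1 and Lamb1, and they include every type VI chain. Col6a5 stood at 5.46, 5.54, 7.19 and 6.07 CPM in HET and 2.34, 2.39, 2.02 and 2.28 CPM in WT. The younger HET mice, at 5.54 and 6.07 CPM, were above WT as well as the older ones. Over all members the median was 0.16 without the older HET mice, when the median over all genes was −0.04.

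In KO against WT no member passed, beside 0.0286% of all genes (4). The change was below 0 for 43 of 44, with a median of −0.55 beside 0.02 over all genes, and 13 members had an unadjusted p under 0.05, beside 9.79% of all genes. The smallest p-values were those of Lamb3 (1.46, SE 0.25, adjusted p = 0.0869), Lama3 (−1.96, SE 0.48, adjusted p = 0.242) and Col6a3 (−0.85, SE 0.28, adjusted p = 0.396). Every KO library lay below every WT library for 6 members (13.6%), Col6a1, Col6a2, Col6a3, Col5a2, Col12a1 and Col23a1, beside 2.57% of all genes. KO against WT and KO against HET share the KO libraries. Marker lists also differed in KO against WT, with no gene called in the 3 named here. The change was below 0 for 11 of 11 smooth muscle markers (median −0.78) and 9 of 9 glial and neuronal markers (median −0.55). For epithelial markers it was below 0 for 6 of 10 (median −0.08). Lamb3 averaged 65.4 ± 37.7 CPM in KO, 20.2 ± 7.56 CPM in HET and 20.8 ± 4.44 CPM in WT (SD, n = 4), and its KO level was 324% of that in HET and 314% of that in WT. In contrast, the KO level of Col3a1 was 41.0% of the HET level and 67.2% of the WT level, and that of Lama5 was 26.3% and 55.0%.

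The zinc complex gave no member that passed. Over all genotypes, hydroxy against amino had 0 members and 0% of all genes called, with 1 member and 8.96% of all genes (1255) at an unadjusted p under 0.05. That member was Lama3 (−0.99, SE 0.39, adjusted p = 0.544), followed by Lama5 (−0.53, SE 0.27, adjusted p = 0.582) and Col7a1 (−0.50, SE 0.31, adjusted p = 0.648). Within WT no member passed, and 0 members and 1.03% of all genes (144) had an unadjusted p under 0.05, with Col4a5 (0.51), Col11a1 (0.63) and Col8a1 (0.53) the smallest p-values at an adjusted p of 1. In HET the counts were again 0 called, with 0 members and 2.68% of all genes (375) at an unadjusted p under 0.05, and small p-values were those of Lamb3 (−0.70) and Col18a1 (0.31), at an adjusted p of 1. The median over members was −0.15 over all genotypes, 0.07 in WT and 0.02 in HET, and the WT value turned to −0.01 under the alternative scalings.

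Within KO the hydroxy libraries were lower than the amino libraries for most members, and none passed. The change was below 0 for 41 of 44, with a median of −0.58 beside 0.07 over all genes, and 7 members had an unadjusted p under 0.05, beside 13.7% of all genes (1921). Both hydroxy libraries were below both amino libraries for 28 members (63.6%), beside 16.8% of all genes. Lama3 averaged 3.51 CPM in KO hydroxy and 30.3 CPM in KO amino (log2 change −2.80, SE 0.68, adjusted p = 0.300), and Lamb3 averaged 92.5 CPM in KO hydroxy and 38.3 CPM in KO amino (1.21, SE 0.35, adjusted p = 0.300). Col7a1 had 0.240 and 0.0936 CPM in KO hydroxy and 1.78 and 2.85 CPM in KO amino (−1.49, SE 0.53, adjusted p = 0.304). The others with an unadjusted p under 0.05 were Lama5 (−1.22), Col3a1 (−0.76), Col6a4 (−0.82) and Col1a1 (−0.98). Without KO hydroxy 1 the median was −0.24. The difference between the complex effect in KO and that in WT passed for no member, with 2 members and 3.79% of all genes (530) at an unadjusted p under 0.05, namely Lama3 (−2.74, SE 0.96, adjusted p = 0.992) and Lamb3 (1.39, SE 0.50, adjusted p = 0.992). Col3a1 followed at −0.87 (SE 0.42, adjusted p = 0.992). For HET against WT the difference passed for no member, with 0 members and 1.59% of all genes (222) at an unadjusted p under 0.05, and Col4a5 (−0.68), Col11a1 (−0.75) and Col7a1 (0.96) had the smallest p-values at an adjusted p of 1. The medians of these differences were −0.71 for KO and −0.03 for HET, the second of which turned to 0.04 with quantile normalization and 0.06 with medians of ratios.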

How the data were processed

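The deposited table holds CPM values for 17112 genes in 12 libraries; the authors added 1e-04 to every value, as the values show. Partek, TopHat2 and the mouse build mm10 are named in the submitters' processing notes, with no versions; the sources used here do not give the counting tool, the annotation or the use of strand, so genes that overlap or share reads are uncertain. Coordinates are those of the deposited table, 1-based. Taken as multiples of 1 read, 93.2% to 94.7% of low values came within 0.05 of whole, so reads were not recovered and no count test was run.

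A gene was kept if 2 or more libraries reached 1 CPM (14001 genes). A model of 6 group means was fitted to log2(CPM + 1), on which scale every fold change is given and low genes are understated, by limma 3.58.1 under R 4.3.3 (two-sided moderated test, trended prior, 6 residual and 3.61 prior degrees of freedom). For older against younger HET a term for age was added (5 residual, 4.63 prior). In each of 10 comparisons the Benjamini-Hochberg adjustment ran over all genes kept, with a threshold of 0.05. KO, HET and WT were compared as means over both complexes. The steps were tested on simulated data. Exon lengths come from GENCODE M21 and promoter windows from RefSeq (GRCm38.p6). Python 3.11.15, numpy 2.4.6, pandas 2.3.3 and scipy 1.17.1 were used for the tables.

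The members, gene lists and rules were chosen with earlier results of these data known. Values are given for the most abundant members of each class, every member called, the 3 smallest p-values of each comparison, the 3 members that vary most, and up to 4 called or else the 2 leading genes of each other list; 1 gene that meets the rule is not reported here. Alternatives were other pseudocounts, filters, scalings, weights and trend, age as a covariate, libraries left out, and, added after the data were seen, each complex alone.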

Additional observations from a re-analysis of the deposited data

Results flagged for a closer look

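In groups of 4 libraries, 69 sets of values were examined for a library far from the rest, of which chance gives about 1 in 20. Only 1 was found, a smaller share than chance gives. Col12a1, a collagen that coats fibrils, was found in WT, where WT hydroxy 2 held 27.5 CPM and the other 3 held 16.3 to 18.1 CPM, a gap of 0.845 of the whole range, above the critical value of Dixon's test. WT hydroxy 2 also held 1957 CPM of the smooth muscle gene Myh11, against 436 to 888 CPM in the other 3 WT libraries, and whether that bears on Col12a1 was not tested.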

How the results depend on the processing

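No paired analysis was run. Each mouse gave 1 library and received 1 complex, and the labels carry no replicate numbers. In HET each complex had 1 older and 1 younger mouse, and a term for this was fitted only for older against younger HET. The 22 members called in KO against HET became 13 with library weights, 6 without the older HET mice, 0 without the 2 Fabp6 libraries (HET amino 2 and WT hydroxy 1), and 0 in the hydroxy and 0 in the amino libraries alone. Leaving out 1 library at a time gave 0 to 27 members, and over all genes 1 to 1396 in KO against HET, 1 to 14 in KO against WT, 0 to 109 in HET against WT and 0 to 26 in older against younger HET. Under every alternative run, the called members that were tested kept their direction. With a pseudocount of 5 CPM, Lamc3 passed in older against younger HET (count 1), and with library weights, Lamb3 passed in KO against WT (count 1). The median over members in HET against WT was 0.16 without the older HET mice and 0.37 to 0.86 with 1 library left out, and in KO against HET it was −1.36 to −0.83. For the complex effect in HET minus that in WT it was −0.62 without the Fabp6 libraries and −0.47 to 0.40 with 1 library left out. The same ranges were −0.35 to 0.48 for hydroxy against amino in HET, −0.16 to 0.39 in WT, −0.94 to −0.24 in KO, −0.31 to 0.01 over all genotypes, −1.0 to −0.40 for the effect in KO minus that in WT, −0.72 to −0.40 in KO against WT and 0.77 to 0.91 in older against younger HET. Without the Fabp6 libraries or without HET amino 2, hydroxy against amino in HET turned to −0.048 for Col18a1 (range with 1 library left out −0.048 to 0.66), and without the Fabp6 libraries the HET minus WT effect turned to −0.18 for Col7a1; the causes were not tested. Scaling by medians of ratios moved the median of all genes in older against younger HET from 0.23 to −0.01 and that of the members from 0.79 to 0.55. In WT, hydroxy against amino turned to −0.01 over members with quantile normalization and with medians of ratios. With 2 libraries a group, the precision is limited by the number of animals, and below about 0.1 CPM by depth.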
